A study of Mus musculus with 9 samples.

Results

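The clustered histone genes are the genes for the core histones H2A, H2B, H3 and H4 and the linker histone H1 that lie side by side in a few clusters of the mouse genome. They were taken as every gene of the deposited expression table whose symbol begins with Hist1h, Hist2h, Hist3h or Hist4h, and 68 of the 21944 genes kept from the table met this rule. Assigned by symbol, Hist1 on chromosome 13 held 55 of them, Hist2 on chromosome 3 held 10, Hist3 on chromosome 11 held 2, and Hist4 on chromosome 6 was a single gene. By product there were 6 H1, 19 H2A, 18 H2B, 12 H3 and 13 H4 genes, and 61 of the 68 reached the level needed for a test. One symbol of the list, Hist1h2al, is a pseudogene in the reference annotations although the deposited table lists it with the protein-coding genes. It lies at chr13:51202688-51203065, outside the stretch chr13:21715763-23934851 that holds the other Hist1 members. By its symbol it is counted with Hist1 throughout.

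RNA was measured in 9 tumour samples grown from mouse N134 cells, a pancreatic neuroendocrine tumour line, in NOD.Cg-PrkdcscidIl2rgtm1Wjl/SzJ (NSG) hosts, which lack mature lymphocytes. There were 3 groups of 3 libraries: tumours of N134 cells under the skin (N134 tumours), tumours of N134-RHAMMB cells under the skin (N134-RHAMMB tumours, numbered 1, 2 and 4), and liver metastases of N134-RHAMMB cells. RHAMMB is an isoform of RHAMM, the hyaluronan-mediated motility receptor encoded by Hmmr, and the labels give neither how it was introduced nor whether the line is 1 clone. The metastases arose from cells given by tail vein, which means that site and route cannot be told apart, and the labels do not name separate animals, so p-values measure the spread between these samples only.

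Most clustered histone genes are transcribed in S phase, when newly made DNA has to be packed into nucleosomes. Core histones form the protein spool of the nucleosome, with pairs of H2A-H2B and H3-H4, and H1 binds the DNA that enters and leaves it. Their mRNAs carry no introns and end not in a poly(A) tail but in a short stem-loop, which is bound by the stem-loop binding protein Slbp and needed for processing, translation and rapid decay at the end of S phase. Transcription in histone locus bodies depends on Npat. A few members, among them Hist1h1c, Hist1h2bc and Hist2h2be, are known also to give polyadenylated transcripts, and Hist1h1t, Hist1h2aa and Hist1h2ba are known from the male germ line. No source used here gives the library preparation, and how completely mRNA without a poly(A) tail was captured is therefore unknown.

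The stem-loop is shown because it is the feature that sets these mRNAs apart from others. The transcript models of GENCODE M21 (build GRCm38) were searched over their whole length for 16 bases of the form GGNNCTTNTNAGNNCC with 6 complementary base pairs around a loop of 4 bases. Of the 68 members 46 held it, 21 to 58 bases (median 31) after the stop codon. In 23 of these 46 the model ran more than 100 bases past the stem-loop. Of the other 22 models, 18 ended within 50 bases of the stop codon, counting Hist1h2al, whose model has no coding sequence. The 4 longer ones were Hist2h2be, Hist1h2bc, Hist1h2bq and Hist1h2br. The pattern stood anywhere in a transcript of 10 of 21671 other genes (0.0461%), one of them H2afx, the replacement variant of the DNA damage response. The most frequent forms are given here with the stem in capitals and the loop in lower case, and the forms with GGCCCT stems were found in H4 genes alone.
26 members of H1, H2A, H2B and H3: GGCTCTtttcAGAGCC
7 members, all H4: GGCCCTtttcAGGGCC
6 members of H1, H2B and H3: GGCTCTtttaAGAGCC
2 members, both H4: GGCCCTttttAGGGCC
2 members, both H4: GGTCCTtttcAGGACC

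Promoters are shown for the member with the highest mean level in each class and for the pair of germ-line genes that share one divergent promoter. RefSeq promoters (build GRCm38.p6) were found for 62 members and 250 bases upstream of the start were searched on both strands for 4 sets of letters, none of which contains another. The CCAAT box (letters CCAAT) stood in 51 of the 62 windows (82.3%, against 33.8% of 32851 promoters of the same length), in every H1, H2A and H2B window and in 3 of 12 H4 windows. The TATA box, searched as the letters TATAAA, stood in 29 (46.8%, against 12.4%). The octamer ATTTGCAT stood in 13 (20.97%, against 1.601%), all of H2A or H2B genes. The H1 box, with the letters AAACACA, stood in 9 (14.5%, against 6.25%), 5 of them of the 6 H1 genes. Windows of H2A and H2B neighbours that lie head to head, with starts 164 to 281 bases apart, overlap. The same site can then count for both genes, so the windows are not independent. Each line gives the 150 bases that end at the base before the annotated start, 5′ to 3′ on the gene's strand, with these letters or their reverse complement in capitals.
Hist1h1a (chr13:23763518-23763667, plus strand): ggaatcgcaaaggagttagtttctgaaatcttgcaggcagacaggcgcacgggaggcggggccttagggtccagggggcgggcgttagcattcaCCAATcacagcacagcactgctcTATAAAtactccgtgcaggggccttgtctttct
Hist2h2ac (chr3:96220881-96221030, minus strand): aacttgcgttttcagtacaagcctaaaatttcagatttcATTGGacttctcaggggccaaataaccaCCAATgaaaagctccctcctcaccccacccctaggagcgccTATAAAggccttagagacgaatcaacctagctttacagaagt
Hist2h2bb (chr3:96269550-96269699, plus strand): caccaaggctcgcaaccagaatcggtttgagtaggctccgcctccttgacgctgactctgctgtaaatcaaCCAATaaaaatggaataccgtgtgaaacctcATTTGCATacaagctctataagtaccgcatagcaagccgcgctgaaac
Hist1h3b (chr13:23752195-23752344, plus strand): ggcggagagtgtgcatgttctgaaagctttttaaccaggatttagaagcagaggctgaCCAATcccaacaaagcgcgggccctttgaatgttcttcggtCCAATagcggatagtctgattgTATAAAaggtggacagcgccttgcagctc
Hist1h4d (chr13:23581418-23581567, plus strand): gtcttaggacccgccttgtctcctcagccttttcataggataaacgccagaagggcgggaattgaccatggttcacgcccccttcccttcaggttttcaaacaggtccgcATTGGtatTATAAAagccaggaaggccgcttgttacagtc
Hist1h2aa (chr13:23934287-23934436, plus strand): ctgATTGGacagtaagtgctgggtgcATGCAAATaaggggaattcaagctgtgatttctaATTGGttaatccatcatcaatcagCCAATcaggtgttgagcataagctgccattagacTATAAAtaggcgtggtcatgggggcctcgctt
Hist1h2ba (chr13:23934157-23934306, minus strand): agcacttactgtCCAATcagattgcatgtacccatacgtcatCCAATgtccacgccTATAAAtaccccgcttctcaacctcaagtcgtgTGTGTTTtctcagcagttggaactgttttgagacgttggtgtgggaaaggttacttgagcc

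The values are FPKM, fragments per kilobase of transcript and per M (mega) mapped fragments, so levels of different genes are per length. Estimated depth, read from the steps between low values, was 14.6 to 18.4 M fragments per library, at which 1 fragment equals 0.0272 to 0.0342 FPKM for a transcript 2 kb long. Ins2, an insulin gene of beta cells, was listed at 21154 to 38504 FPKM in the 9 libraries. Alb, the albumin gene of hepatocytes, was at 1410 to 1609 FPKM in the metastases and at most 1.597 FPKM elsewhere. The muscle creatine kinase gene Ckm reached 10.2 FPKM in tumour 2 and 16.02 FPKM in tumour 4 of the N134-RHAMMB line, and at most 0.0582 FPKM in any other library. For Hmmr the range was 39.2 to 44.9 FPKM (N134 tumours), 49.2 to 51.3 (N134-RHAMMB tumours) and 36.04 to 43.3 (metastases), which does not check the label, since the species of the introduced sequence is not given. Metastasis 2 stood apart from metastases 1 and 3 in beta-cell genes, with Ucn3 at 22.4 against 0.498 and 0.555 FPKM, Slc2a2 at 12.9 against 61.2 and 168 FPKM and Iapp at 6492 against 3139 and 2049 FPKM. Without it the median member difference was 0.24 in metastases against N134-RHAMMB tumours and −0.33 against N134 tumours, and 2 and 4 members were called (5.37% and 8.85% of all genes).

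Together the 68 genes took 2.82% to 4.81% of all FPKM, and 33 of them had a mean of at least 100 FPKM. Their summed FPKM was 16632, 21471 and 19301 in N134 tumours 1, 2 and 3, 13208, 15314 and 14480 in N134-RHAMMB tumours 1, 2 and 4, and 12583, 13898 and 18286 in metastases 1, 2 and 3. Every N134 tumour therefore lay above every N134-RHAMMB tumour, while metastasis 3 lay among the N134 tumours and the other metastases among or below the N134-RHAMMB tumours. The means were 19135 ± 2424, 14334 ± 1061 and 14922 ± 2986 (SD, n = 3), a ratio of 0.749 for N134-RHAMMB against N134 tumours and 1.04 for metastases against N134-RHAMMB tumours. In bulk samples like these, fewer cells of a type and less RNA per cell cannot be told apart.

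**Figure D1:**
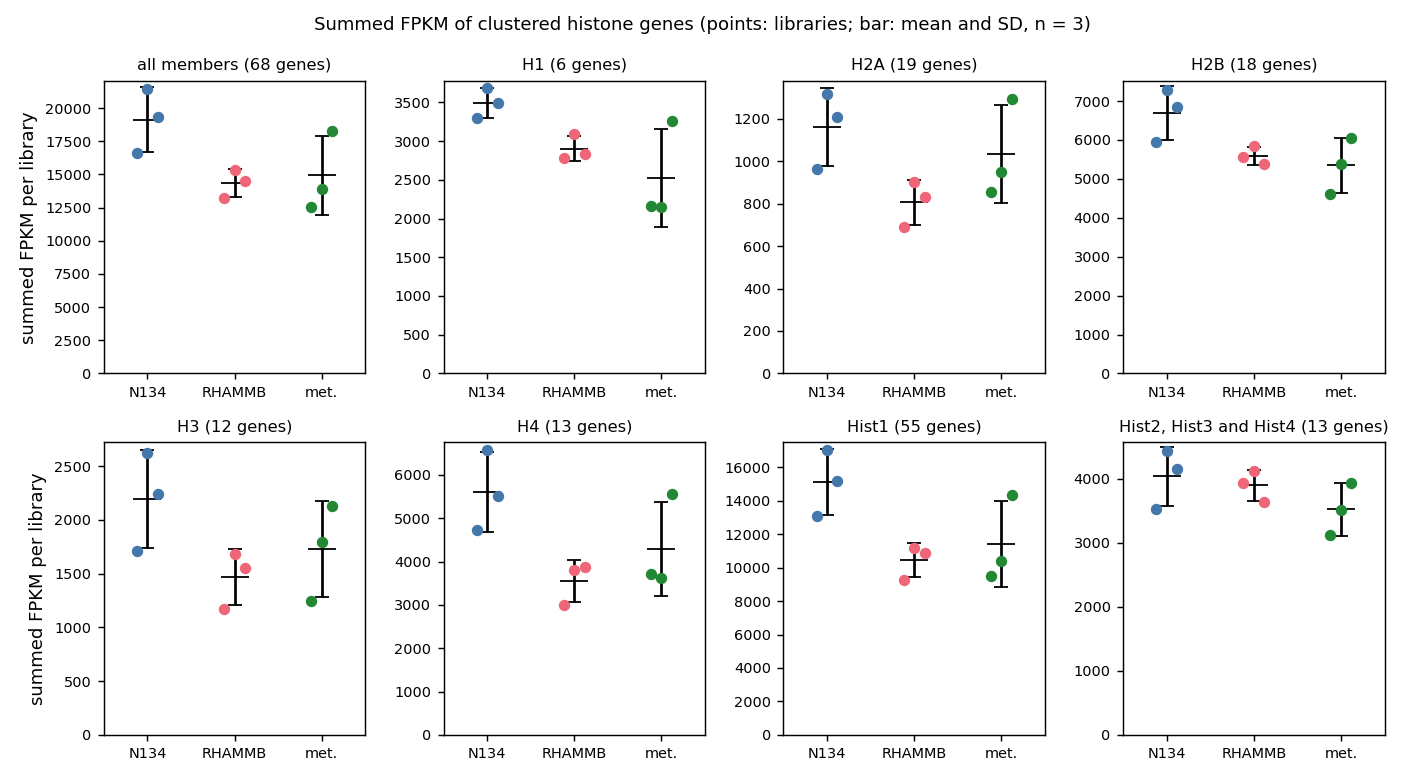
Summed FPKM per library (vertical axes, from 0) of all members, of each histone class and of 2 sets of clusters, for N134 tumours (blue), N134-RHAMMB tumours (red) and metastases (green). Points are libraries and bars the mean and SD of 3. In the 5 classes and in Hist1 every N134-RHAMMB tumour lies below every N134 tumour, while for Hist2, Hist3 and Hist4 the groups overlap.

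Linker histone mRNA was abundant in all groups. Hist1h1a (ENSMUSG00000049539, chr13:23763717-23764358) led the class with 1177, 1322 and 1278 FPKM in N134 tumours, 1034, 1293 and 1074 in N134-RHAMMB tumours and 914, 667 and 1376 in metastases. All 3 groups overlapped for this gene. Next came Hist1h1e, Hist1h1d, Hist1h1b and Hist1h1c with means over the 9 libraries of 799, 516, 281 and 250 FPKM, and the testis gene Hist1h1t was last at 1.07. The class sum was 3494 ± 191 FPKM in N134 tumours, 2903 ± 167 in N134-RHAMMB tumours and 2524 ± 638 in metastases (SD, n = 3).

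H2A genes had the lowest class sum. Hist2h2ac (ENSMUSG00000068855, chr3:96220361-96220880) was listed at 230, 306 and 272 FPKM in N134 tumours, 195, 245 and 224 in N134-RHAMMB tumours and 227, 235 and 342 in metastases, which overlap throughout. Hist3h2a, Hist1h2ak, Hist1h2ab and Hist1h2ac followed with means of 158, 149, 133 and 96.2 FPKM, and the median of the 19 class means was 19.6. The class sum was 1162 ± 183, 806 ± 107 and 1032 ± 230 FPKM in the 3 groups (SD, n = 3).

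H2B genes held the largest share. Hist2h2bb (ENSMUSG00000105827, chr3:96269752-96270132) had the highest mean of all members, with 2479, 3059 and 2928 FPKM in N134 tumours, 2859, 2969 and 2512 in N134-RHAMMB tumours and 2081, 2408 and 2418 in metastases. Its metastases lay below both tumour groups without overlap, and the tumour groups overlapped. Hist1h2bb, Hist1h2bm, Hist1h2bn and Hist3h2ba followed at means of 803, 509, 372 and 350 FPKM. The class sum was 6689 ± 687, 5596 ± 232 and 5344 ± 716 FPKM (SD, n = 3).

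Of the H3 genes, Hist1h3b (ENSMUSG00000069267, chr13:23752267-23752886) was highest, with 366, 523 and 500 FPKM in N134 tumours, 274, 344 and 317 in N134-RHAMMB tumours and 261, 408 and 407 in metastases. The tumour groups did not overlap, and the metastases overlapped both. Hist2h3b, Hist1h3c, Hist1h3d and Hist1h3f followed at means of 281, 248.5, 204 and 197 FPKM, and the class sum was 2190 ± 456, 1469 ± 262 and 1726 ± 446 FPKM (SD, n = 3).

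Hist1h4d (ENSMUSG00000061482, chr13:23581598-23581990) led the H4 genes with 1720, 2474 and 2078 FPKM in N134 tumours, 954, 1283 and 1290 in N134-RHAMMB tumours and 1339, 1245 and 1995 in metastases. The highest N134-RHAMMB tumour lay well under the lowest N134 tumour, and metastasis 3 lay among the N134 tumours. Hist1h4c, Hist1h4f, Hist1h4h and Hist1h4k followed at means of 899, 741, 460 and 238 FPKM. The class sum was 5600 ± 928, 3560 ± 484 and 4296 ± 1091 FPKM (SD, n = 3).

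N134-RHAMMB and N134 tumours share a site and differ in the line. Of the 61 members tested, 58 had a log2 difference below 0 in N134-RHAMMB tumours, with a median of −0.51 beside 0.01 over all 12854 genes tested, on the log2(FPKM + 1) scale used throughout. No member passed limma's test at an adjusted p below 0.05, where 0.194% of all genes passed in either direction (0.0778% higher and 0.117% lower), and the lowest adjusted p of a member was 0.125. At an unadjusted p below 0.05, 38 members were lower (background 7.03%) and 0 were higher (background 5.80%). The groups did not overlap for 37 members, all lower in N134-RHAMMB tumours (background 11.3%), and for none that was higher (background 14.0%). Leaving out metastasis 1 or metastasis 2 changes the shared spread and the set of genes tested (12486 or 12485). It gave 1 or 2 calls (0.136% or 0.689% of all genes called lower in those fits). A fit of the tumour libraries alone called 13 members, all lower, where 0.952% of all genes were called lower. Hist1h1t did not reach the level needed for a test in that fit.

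Every class was on the low side. The medians were −0.27 for H1, −0.69 for H2A, −0.48 for H2B, −0.48 for H3 and −0.52 for H4. The groups did not overlap for 4 of 6 H1, 9 of 15 H2A, 11 of 16 H2B, 5 of 12 H3 and 8 of 12 H4 genes tested, each lower in N134-RHAMMB tumours. The class sums had ratios of 0.831 for H1, 0.694 for H2A, 0.837 for H2B, 0.671 for H3 and 0.636 for H4, and in each class the 3 libraries of one group lay below the 3 of the other.

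The lowest p belonged to Hist1h2be (ENSMUSG00000047246, chr13:23583742-23621124), an H2B gene with 42.9, 47.8 and 52.9 FPKM in N134 tumours and 29.1, 30.9 and 32.4 in N134-RHAMMB tumours. The groups are well apart, and the log2 difference was −0.62 (SE 0.13, adjusted p = 0.125). For Hist1h4d the difference was −0.83 (SE 0.21, adjusted p = 0.166), for Hist1h3b −0.56 (SE 0.20, adjusted p = 0.273), and for Hist2h2ac −0.28 (SE 0.17, adjusted p = 0.537). Hist1h1a, the main H1 gene, differed by −0.16 (SE 0.22) and Hist2h2bb, the main H2B gene, by −0.02 (SE 0.13). The most abundant genes of 2 classes thus had differences smaller than their SE.

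The 3 lowest differences were all of H2A genes. Hist1h2ai was listed at 1.44, 6.09 and 3.56 FPKM in N134 tumours and 0.389, 0.406 and 0.820 in N134-RHAMMB tumours, a difference of −1.49 (SE 0.37, adjusted p = 0.151). Hist1h2af was at 35.7, 49.7 and 48.2 against 13.3, 19.0 and 18.0 FPKM, a difference of −1.36 (SE 0.31, adjusted p = 0.133). Hist1h2ak was at 145, 222 and 200 against 59.7, 107 and 98.3 FPKM, a difference of −1.11 (SE 0.28, adjusted p = 0.167). None of the 3 passed the test although their groups did not overlap. Of their transcripts' 50-base windows, 9.88% for Hist1h2ai, 20.3% for Hist1h2af and 47.7% for Hist1h2ak are found nowhere else among the annotated transcripts, so reads of their relatives could have been assigned to them.

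The clusters did not stand alike. Members of Hist1 had a median of −0.57 with 49 of 50 below 0, and their summed FPKM was 13107, 17042 and 15156 in N134 tumours against 9270, 11200 and 10846 in N134-RHAMMB tumours, a ratio of 0.691 without overlap. The 11 tested members of Hist2, Hist3 and Hist4 had a median of −0.05 with 9 below 0. The summed FPKM of these clusters was 3526, 4429 and 4144 against 3938, 4115 and 3634 FPKM, a ratio of 0.966 with overlap. Most of that sum was Hist2h2bb alone, with means of 2822 and 2780 FPKM beside 4033 and 3896 for the sum. The difference between clusters was not tested. Hist3h2ba, an H2B gene of the Hist3 cluster, was at 306, 384 and 330 against 422, 376 and 353 FPKM (difference 0.18, SE 0.14), and its neighbour Hist3h2a differed by −0.03 (SE 0.17). Hist4h4 was at 30.1, 37.8 and 31.8 against 30.6, 37.0 and 32.3 FPKM, a difference of 0.00 (SE 0.13) that falls below 0 under median-of-ratios and quantile scaling.

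In Hist2, 8 of 8 tested members were below 0 (median −0.23). Hist2h2ab, an H2A gene (ENSMUSG00000063689, chr3:96219865-96220308), was at 20.9, 27.3 and 23.7 FPKM in N134 tumours and 15.7, 18.4 and 13.0 in N134-RHAMMB tumours, a difference of −0.59 (SE 0.19, adjusted p = 0.233). It was the one gene of Hist2 whose groups did not overlap. Hist2h3b, Hist2h4, Hist2h3c1, Hist2h2be and Hist2h3c2 differed by −0.34, −0.29, −0.18, −0.05 and −0.03. The row of Hist2h3c1 carries a low-data status in the deposited table.

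**Figure D2:**
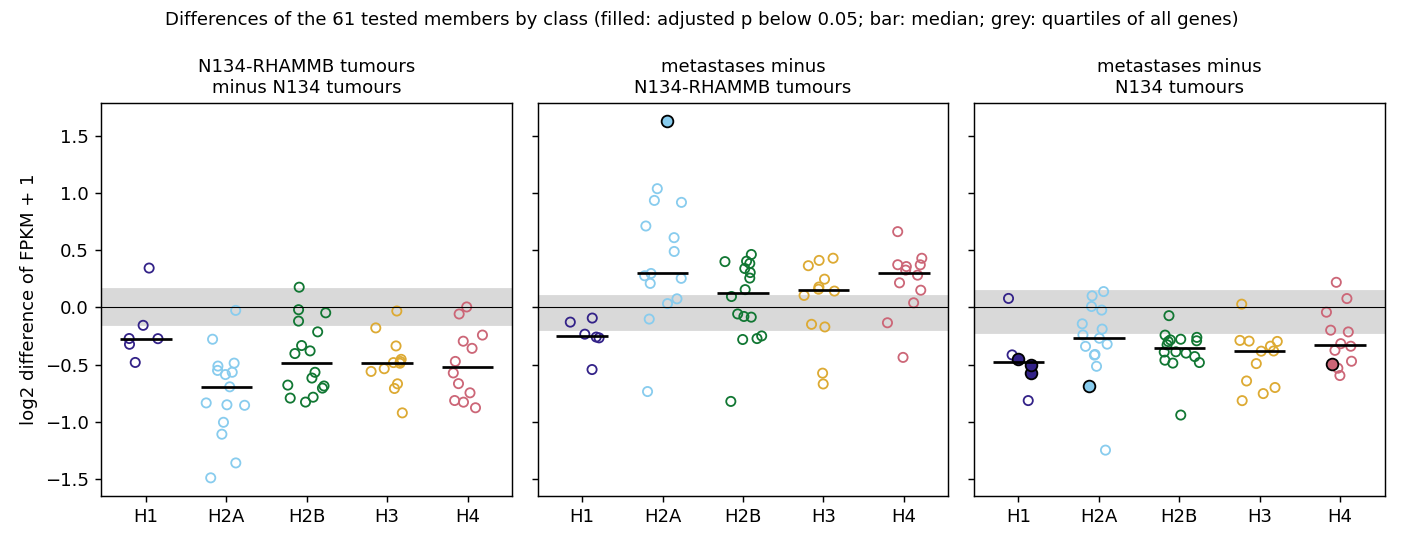
Log2 difference of FPKM + 1 (vertical axis) of each of the 61 tested members by histone class in the 3 comparisons. Filled points passed an adjusted p below 0.05, black bars are class medians, and the grey band spans the quartiles of all 12854 genes tested. In the first panel all 5 class medians lie below the band, and in the second H1 lies below 0 while the other classes lie above it.

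The comparison of metastases with tumours under the skin follows the same line to another site. Of the 61 members, 40 were above 0 and 21 below in metastases, with a median of 0.18 beside −0.06 over all genes. Hist1h2ai alone passed, higher in metastases, which is 1.64% of members beside a background of 5.04% higher (1.52% lower, 6.56% in either direction). At an unadjusted p below 0.05, 9 members were higher (background 8.13%) and 2 lower (background 8.53%), and the groups did not overlap for 5 higher (background 8.80%) and 3 lower (background 11.0%). The summed FPKM overlapped in all 5 classes. All comparisons share libraries with another one, so their differences are given side by side and not as separate evidence.

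The classes went different ways here, a difference that was not tested. Each of the 6 H1 genes was below 0 (median −0.25), whereas 13 of 15 H2A genes (median 0.30), 9 of 16 H2B genes (median 0.13), 8 of 12 H3 genes (median 0.15) and 10 of 12 H4 genes (median 0.30) were above 0. Among the 37 tested members with at least 50% unique windows the median was 0.03, with 19 above and 18 below 0. Unique shares were computed on each gene's longest GENCODE M21 transcript model. For some of the 37 that model is much longer than the deposited span, as for Hist1h2bh (1679 against 388 bases). The share over the deposited span was not computed and may be lower. The same 37 had medians of −0.38 for N134-RHAMMB against N134 tumours and −0.39 for metastases against N134 tumours.

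Hist1h2ai rose from 0.389, 0.406 and 0.820 FPKM in N134-RHAMMB tumours to 2.21, 4.47 and 5.004 FPKM in metastases (difference 1.63, SE 0.37, adjusted p = 0.0222). The metastases lay in the range of the N134 tumours. Leaving out N134-RHAMMB tumour 1 or 2 or metastasis 2 or 3 raised the adjusted p to 0.0896, 0.0827, 0.0649 and 0.119 in that order, and without a filter on low values it was 0.0502. Without N134-RHAMMB tumours 2 and 4, which hold muscle transcripts, it was 0.229 with a difference of 1.76. Tumour 1 is then the lone N134-RHAMMB library, and it is assumed to vary like the other groups. Its low share of unique windows, given above, holds here too.

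The next largest differences were of Hist1h2af (1.04, SE 0.31, adjusted p = 0.0858) and of the pseudogene Hist1h2al (0.94, SE 0.28, adjusted p = 0.0940). The 3 metastases had 12.6, 9.22 and 17.7 FPKM of Hist1h2al, all above the N134-RHAMMB tumours, which had 3.76, 6.96 and 8.80. The lowest were of Hist1h2ba (−0.82, SE 0.64), Hist1h2aa (−0.74, SE 0.74) and Hist2h3c2 (−0.67, SE 0.23, adjusted p = 0.154). Hist2h3c2, an H3 gene near the limit of 1 FPKM, was at 1.23, 1.17 and 1.52 against 0.207, 0.489 and 0.686 FPKM.

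Metastases were also set against N134 tumours, where both line and site differ. Of the 61 members, 54 were below 0 in metastases, with a median of −0.34 beside −0.03 over all genes. Of these, 5 fell, which is 8.20% of the 61 beside a background of 4.23%, and 0 rose (background 5.69%, 9.93% in either direction). At an unadjusted p below 0.05, 19 were lower (background 11.7%) and 0 higher (background 9.72%), and the groups did not overlap for 12, all lower (background 14.3%). Medians were −0.48 for H1, −0.27 for H2A, −0.36 for H2B, −0.38 for H3 and −0.33 for H4.

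The linker histone genes Hist1h1c, Hist1h1d and Hist1h1e were 3 of these 5. Hist1h1e (ENSMUSG00000051627, chr13:23621755-23622502) was at 896, 1008 and 931 FPKM in N134 tumours and at 583, 632 and 795 in metastases (difference −0.51, SE 0.12, adjusted p = 0.0285). Hist1h1d (ENSMUSG00000052565, chr13:23555087-23555830) was at 603, 688 and 646 against 355, 418 and 548 FPKM (difference −0.57, SE 0.15, adjusted p = 0.0323). Hist1h1c (ENSMUSG00000036181, chr13:23738808-23740367) was at 262, 328 and 302 against 185, 225 and 243 FPKM (difference −0.45, SE 0.12, adjusted p = 0.0475). In all 3 the highest metastasis, number 3, lay closest to the N134 tumours and still below them. Hist1h1b was lower by more, at 363, 337 and 339 against 122, 209 and 297 FPKM, but with a wider spread (difference −0.81, SE 0.25, adjusted p = 0.0730).

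The other members that passed were an H4 and an H2A gene. Hist1h4n (ENSMUSG00000069305, chr13:21831767-21832196) was at 71.5, 85.1 and 73.8 FPKM in N134 tumours, 79.9, 79.7 and 62.5 in N134-RHAMMB tumours and 51.7, 50.2 and 60.99 in metastases. Its difference was −0.49 from N134 tumours (SE 0.13, adjusted p = 0.0376) and −0.44 from N134-RHAMMB tumours (SE 0.13, adjusted p = 0.0874). Its coding sequence is identical to that of Hist1h4m, which was listed at 0 in all libraries, and 14.4% of its windows were unique. Hist2h2ab was at 10.999, 15.9 and 17.1 FPKM in metastases, a difference of −0.69 from N134 tumours (SE 0.19, adjusted p = 0.0430).

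These calls moved with single libraries and with scaling. None of the members passed without N134 tumour 2, N134 tumour 3, N134-RHAMMB tumour 1 or metastasis 1, while 2.20%, 3.04%, 3.15% and 3.23% of all genes were called lower in those fits. Without N134 tumour 1 or N134-RHAMMB tumour 2, 3 passed (2.002% and 3.62% of all genes called lower), and without metastasis 3, 13 passed (2.63%). None passed under median-of-ratios scaling either (4.06% of all genes called lower). At the edges of this comparison, Hist1h2aa, Hist1h2ba and Hist1h3d had the lowest differences (−1.25, −0.94 and −0.81) and Hist4h4, Hist1h2ai and Hist1h2al the highest (0.22, 0.14 and 0.10), and the last 2 of these fall below 0 without metastasis 3.

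**Figure D3:**
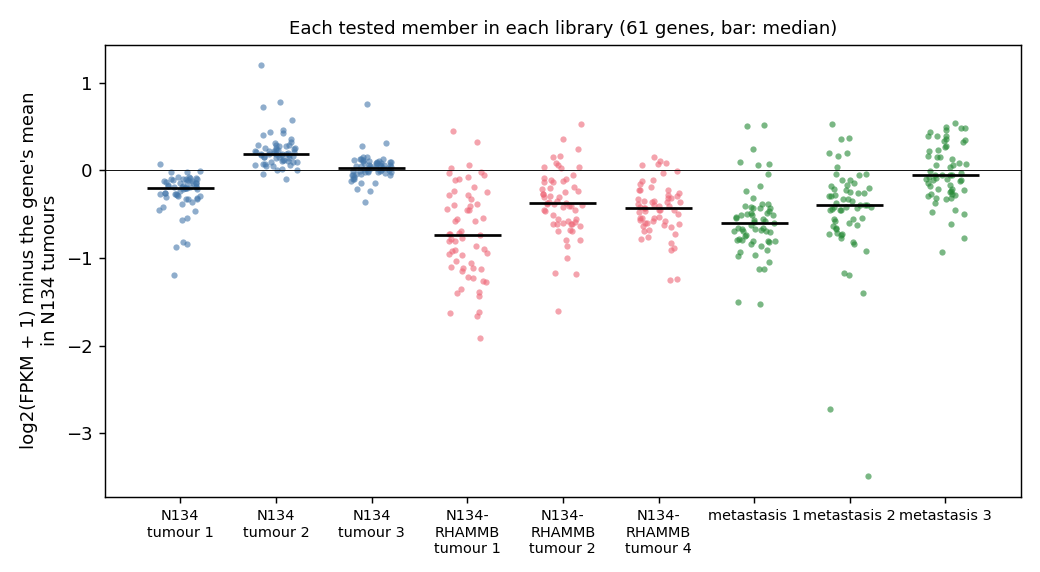
Log2(FPKM + 1) of the 61 tested members in each library minus the gene's mean in the 3 N134 tumours (vertical axis). Each point is a gene and each bar the library's median, which is lowest in N134-RHAMMB tumour 1 (−0.74) and metastasis 1 (−0.60) and near 0 in metastasis 3 (−0.06).

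Library by library the members largely moved as a group. Relative to the mean of the N134 tumours, the median member stood at −0.20, 0.19 and 0.03 in N134 tumours 1, 2 and 3, at −0.74, −0.37 and −0.43 in N134-RHAMMB tumours 1, 2 and 4, and at −0.60, −0.40 and −0.06 in metastases 1, 2 and 3. N134 tumour 2 was the highest library for 38 of the 61 members and N134-RHAMMB tumour 1 the lowest for 32. Among the N134 tumours, number 1 was below the group's mean for 60 of 61 members and number 2 for 2 of 61. The correlation of a member with the mean of all other tested members over the 9 libraries, which share depth and normalisation, had a median of 0.84 and a range of −0.18 to 0.99, and 43 of 61 exceeded 0.7. The 5 members under 0.3 were Hist1h1t, Hist2h2be, Hist3h2ba, Hist1h2ba and Hist1h2aa.

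Several H2A and H2B genes lie head to head. Among members with a RefSeq promoter there were 10 such pairs with starts within 500 bases, all in Hist1 and 164 to 281 bases apart. Members without one, Hist1h2bc among them, were not searched. In 8 pairs both genes were tested, and over the 9 libraries the correlation within a pair was 0.68 to 0.94 (median 0.86). The correlation of a member with the mean of all other tested members, a different measure, had a median of 0.84. Levels within a pair ranged from alike to far apart. Hist1h2an had a mean of 36.2 FPKM beside 31.04 for Hist1h2bp, Hist1h2ak had 149 beside 372 for Hist1h2bn, and Hist1h2ae had 19.6 beside 313 for Hist1h2bg.

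The germ-line members were among the 5 that followed the other members least. Hist1h2aa, a testis H2A gene, was at 14.5, 17.8 and 21.7 FPKM in N134 tumours, 9.91, 15.5 and 11.7 in N134-RHAMMB tumours, and 21.2, 0.672 and 12.3 in metastases 1, 2 and 3. Its divergent partner Hist1h2ba, a testis H2B gene, was at 8.59, 13.3 and 8.19, then 9.58, 11.8 and 6.26, then 14.4, 0.645 and 6.07 FPKM. The testis linker gene Hist1h1t was at 0.793, 0.695 and 0.966, then 1.47, 1.61 and 0.901, then 1.59, 0.106 and 1.46 FPKM.

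Metastasis 2 was the lowest library for all 3 genes, whereas metastasis 1 was among the highest. Metastasis 2 also stood apart in beta-cell genes, as given with the depth, and the part of this in the result was not tested. The differences of metastases from N134-RHAMMB tumours were −0.74 for Hist1h2aa and −0.82 for Hist1h2ba, and without metastasis 2 they were 0.38 and 0.07. None of the 3 genes passed the test in any comparison. For Hist1h1t the difference of N134-RHAMMB from N134 tumours was 0.34 (SE 0.30), the highest among the members.

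**Figure D4:**
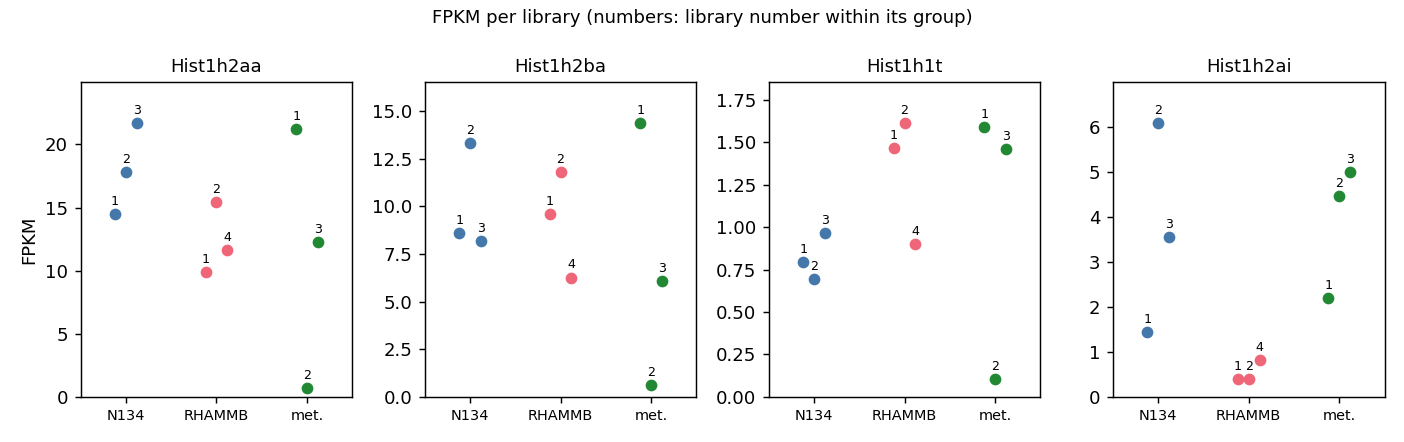
FPKM per library (vertical axes, from 0) of the germ-line members Hist1h2aa, Hist1h2ba and Hist1h1t and of Hist1h2ai. Points carry their library number. Metastasis 2 is lowest for the first 3 genes, and for Hist1h2ai all 3 N134-RHAMMB tumours lie below the other libraries.

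The members known to give polyadenylated transcripts differed among themselves. Hist1h2bc was at 98.5, 111 and 109 FPKM in N134 tumours, 60.1, 68.7 and 67.8 in N134-RHAMMB tumours and 60.2, 80.1 and 99.8 in metastases, and the tumour groups did not overlap (difference −0.69, SE 0.16, adjusted p = 0.141). Hist1h1c, with a stem-loop in its model, differed by −0.32 (SE 0.12, adjusted p = 0.322) between the tumour groups. Hist2h2be was at 5.31, 5.39 and 5.31, then 5.11, 5.45 and 4.86, then 3.24, 7.18 and 2.72 FPKM, nearly equal in all 6 tumours under the skin and scattered in the metastases.

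Under the limit for testing, 1 FPKM in 3 libraries, were 7 members, namely Hist1h2ao, Hist1h2ap, Hist1h2bq, Hist1h2br, Hist1h4m, Hist2h2aa1 and Hist2h2aa2. None of them exceeded 0.225 FPKM in any library, and 4 were listed at 0 in all 9. Their transcripts had 0% to 11.5% unique windows (median 6.93%), beside 6.08% to 100% (median 56.2%) for tested members. By coding sequence Hist2h2aa1 equals Hist2h2aa2, Hist1h2ao equals Hist1h2ap, Hist1h2bq equals Hist1h2br and Hist1h4m equals Hist1h4n, so how reads shared by copies were assigned bears on all of them, and a listing at 0 does not show that a gene was silent. Hist1h3h and Hist1h3i share 79.3% of Hist1h3h's windows and varied widely within groups, with Hist1h3h at 10.9, 48.1 and 15.7 FPKM in N134 tumours.

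**Figure D5:**
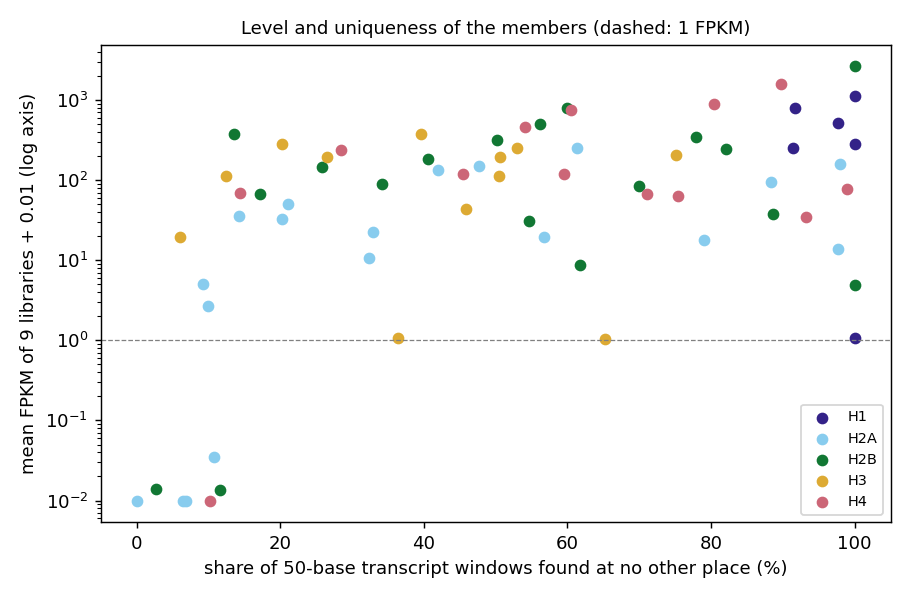
Mean FPKM of the 9 libraries plus 0.01 (vertical log axis) against the share of a transcript's 50-base windows found at no other place (horizontal axis, %) for the 68 members, coloured by class. The 7 untested members lie at the lower left, at 11.5% or less, and tested members span 6.08% to 100%.

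Other genes of DNA replication and histone supply were read from the same fit. Of 28 tested genes of DNA synthesis in S phase, 23 were above 0 in N134-RHAMMB against N134 tumours (median 0.14) and none passed. At an unadjusted p below 0.05, 5 were higher (background 5.80%) and 2 lower (background 7.03%). The largest differences there were of Gins1 (0.42), Gins4 (0.37), Rrm2 (0.36) and Pold1 (−0.35), which serve replication forks and, for Rrm2, the supply of deoxynucleotides. Rrm2 was at 86.1, 77.9 and 81.8 FPKM in N134 tumours, 104, 103 and 109 in N134-RHAMMB tumours and 72.2, 63.6 and 94.6 in metastases. In metastases against N134-RHAMMB tumours 22 of the 28 were below 0 (median −0.20), again with none passing. At an unadjusted p below 0.05, 1 was higher (background 8.13%) and 6 lower (background 8.53%). Against N134 tumours 18 were below 0 (median −0.04), none passed and none had an unadjusted p below 0.05 (background 9.72% higher and 11.7% lower).

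Factors of histone mRNA synthesis, processing and decay had medians of 0.12, −0.09 and −0.05 in the 3 comparisons over 18 tested genes, and none passed. At an unadjusted p below 0.05 the only one of these was 1 gene lower in metastases against N134-RHAMMB tumours (background 8.53%). Eri1, the exonuclease that trims the histone stem-loop, had the largest difference between the tumour groups (0.41, adjusted p = 0.410). Chaperones of histone import and deposition had medians of 0.07, −0.10 and −0.03 over 21 tested genes. Of these, 2 fell in metastases against N134 tumours (background 4.23%). They were Anp32e, a chaperone that removes H2A.Z (−0.60, adjusted p = 0.000868), and Nasp, which keeps a store of H3 and H4 (−0.35, adjusted p = 0.0333).

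Histone variants encoded outside the clusters, H2afx with its stem-loop among them, had medians of −0.22, −0.15 and −0.16 over 11 tested genes. H2afy2, which encodes a macroH2A, was at 10.4, 7.63 and 8.92 FPKM in N134 tumours, 4.09, 3.48 and 4.99 in N134-RHAMMB tumours and 3.91, 3.18 and 5.33 in metastases. It fell in metastases against N134 tumours (−0.97, adjusted p = 0.00900) and, with a like size but no call, differed between the tumour groups (−0.95, adjusted p = 0.108). H1f0, the linker histone of resting cells, was higher by 0.39 in N134-RHAMMB tumours (adjusted p = 0.207).

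Genes of mitosis had a median of 0.09 between the tumour groups with none of 20 called and 1 higher at an unadjusted p below 0.05 (background 5.80%). All 20 were below 0 in metastases against N134-RHAMMB tumours (median −0.27), where the mitotic kinesin gene Kif20a alone was called lower (−0.54, adjusted p = 0.00359, background 1.52%). In that comparison 10 were lower (background 8.53%) and 0 higher (background 8.13%) at an unadjusted p below 0.05. Against N134 tumours 18 of 20 were below 0 (median −0.17) and 3 fell (background 4.23%). They were Kif20a (−0.41, adjusted p = 0.0177), Cdk1 (−0.54, adjusted p = 0.00999) and Ccna2 (−0.38, adjusted p = 0.0189), the last 2 being a kinase of cell division and a cyclin that binds it. Here 7 were lower (background 11.7%) and 0 higher (background 9.72%) at an unadjusted p below 0.05.

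Other short genes were read from the same fit. Histone transcripts are short, and 39 of the 68 table spans were under 500 bases. The 49 tested non-member genes of up to 500 bases of transcript had medians of 0.11 (quartiles −0.22 and 0.60), −0.22 (−0.54 and 0.07) and −0.11 (−0.50 and 0.32) in the 3 comparisons. The part of transcript length in the members' differences was not tested.

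Marker genes of host cells are given because their levels differed between the groups. Over all genes, 0.117% were called lower in N134-RHAMMB against N134 tumours. At an unadjusted p below 0.05, 7.03% were lower and 5.80% higher. Between the tumour groups 9 of 10 fibroblast genes were below 0 (median −0.98, 2 called lower), with a summed level of 336 to 570 FPKM in N134-RHAMMB against 707 to 963 in N134 tumours. All 10 macrophage genes were below 0 (median −0.72, none called, 9 lower at an unadjusted p below 0.05), with sums of 344 to 463 against 478 to 818 FPKM. All 6 tested erythroid and neutrophil genes were below 0 (median −1.17, none called, 5 lower at an unadjusted p below 0.05), with sums of 398 to 865 against 976 to 1956 FPKM. Endothelial genes had a median of −0.07, with 4 of 10 above 0, none called, 1 lower at an unadjusted p below 0.05 and sums of 69.2 to 80.5 against 73.5 to 87.99 FPKM. Beta-cell genes had a median of −0.03, with 4 of 10 above 0, none called, 1 higher and 1 lower at an unadjusted p below 0.05, and sums of 29341 to 35804 against 36120 to 39989 FPKM. The sums of the fibroblast, macrophage, erythroid and neutrophil, and beta-cell lists did not overlap between the tumour groups. In metastases against N134 tumours 6 of 10 fibroblast genes (median −1.05) and 9 of 10 macrophage genes (median −1.24) were called lower. So were 3 of 6 erythroid and neutrophil genes (median −1.30), beside a background of 4.23%. No endothelial or beta-cell gene was called there. In metastases against N134-RHAMMB tumours the medians of the first 3 lists were −0.23, −0.51 and −0.06.

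Of the hepatocyte list, Ttr, which islet cells also express, was at 480 to 574 FPKM in metastases and 282 to 427 FPKM in the tumours under the skin. The other 11 hepatocyte genes summed to 4422 to 4705 FPKM in metastases and 14.2 to 19.1 FPKM in the tumours under the skin. No marker of these lists was listed at 0 in all libraries, and the part of such cells in the differences of the histone genes was not tested.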

How the data were processed

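Per the file headers, the authors deposited 1 table of FPKM values, each beside a status word. STAR 2.5.2, Cufflinks 2.1.1, bcl2fastq 2.19 and GRCm38 are named, without roles, per the submitters' processing notes. No source used here gives read length, strand or library preparation. Of 22053 rows, 7 with failed estimates and 102 further rows of repeated symbols were left out. Genes with at least 1 FPKM in at least 3 libraries (12854) were tested on log2(FPKM + 1) with limma 3.58.1 (R 4.3.3) in 1 model over 9 libraries, with an intensity trend, 2-sided tests and Benjamini-Hochberg adjustment over all genes tested. A pseudocount of 1 understates the change of low genes. The fit was tested on simulated data for N134-RHAMMB against N134 tumours, with changes put into genes well above the filter. It recovered 15.15% of log2 changes of 0.5, 70.15% of changes of 1 and 98.51% of changes of 2, with 6.82% false among calls. Changes of the size of the members' median would thus mostly be missed. Named members were the 5 highest of each class, those passing the test, the extremes of each comparison, tested members outside Hist1, and the germ-line and polyadenylated members. Members and lists were chosen with earlier results of these data known. Deposited starts were 1 below GENCODE M21 for 82.3% of matched genes, so coordinates are given with 1 added. Windows of 50 bases of each member's longest M21 transcript were matched among M21 transcripts. Motif and stem-loop searches, sums and figures used Python 3.11.15.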

Additional observations from a re-analysis of the deposited data

How the results depend on the processing

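Depth was estimated, not stated, and FPKM hides counting error, which limits members near 1 FPKM most. Counts of members called, member medians and named differences were recomputed under up to 21 alternatives, and summed FPKM under 3. One alternative, leaving out N134-RHAMMB tumours 2 and 4 with their muscle transcripts, was chosen after seeing the data. It leaves tumour 1 alone in its group, assumed to vary like the others, so its medians restate that library. The sign of the 3 member medians was the same under the other 20. For N134-RHAMMB against N134 tumours the median was −0.75 with library weights, −0.74 without the muscle-bearing libraries and −0.67 to −0.42 with 1 library left out. It ranged over 0.07 to 0.29 (metastases against N134-RHAMMB tumours) and −0.49 to −0.21 (metastases against N134 tumours) with 1 library left out. Mean summed FPKM stayed within 1 SD under all 3 of its alternatives, for example 14192 in N134-RHAMMB tumours after median-of-ratios scaling.

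Counts of members called moved more, and the cause was not tested. The share of all genes called in the same fit follows in parentheses. Between the tumour groups 0 became 13 in a fit of those 2 groups (2.14%) and 44 with library weights (20.5%), and 0 to 2 with 1 library left out (0% to 1.53%). Metastases against N134-RHAMMB tumours gave 0 without a filter (5.78%) and with a mean of at least 5 FPKM (3.65%), 2 with quantile normalization (7.34%), 16 with library weights (15.2%), 2 without the muscle-bearing libraries (3.99%) and 0 to 3 with 1 library left out (2.85% to 6.05%). Metastases against N134 tumours gave 1 without a filter (8.52%), 2 with a mean of at least 5 FPKM (6.25%), 0 with median-of-ratios scaling (10.5%), 0 in a fit of those 2 groups (7.94%), 1 without the trend (9.76%), 14 with library weights (12.7%), 0 without the muscle-bearing libraries (7.90%) and 0 to 13 with 1 library left out (4.96% to 9.19%).

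A replicate block gave 0, 3 and 8 calls in the 3 comparisons (0.00778%, 5.03% and 8.53% of all genes). Number 4 occurs only among the N134-RHAMMB tumours, so the block also takes that library out of the group differences. Values under the block therefore mix pairing by number with the loss of N134-RHAMMB tumour 4. Libraries with the same number had correlations of deviations of −0.003 to 0.102, so the numbers were not taken to pair them. Under the block, the difference between the tumour groups became 0.022 for Hist1h1a, 0.085 for Hist2h2bb and 0.029 for Hist3h2a, each reversed.

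Of 708 values of 34 named differences, 589 kept direction and side of the threshold and 23 reversed. Hist4h4 between the tumour groups was −0.0039 after median-of-ratios scaling, −0.029 after quantile normalization, −0.090 with library weights and −0.11 without the muscle-bearing libraries, and −0.072 to 0.099 with 1 library left out. Hist2h2bb became 0.025 without the muscle-bearing libraries, and with 1 library left out it ranged over −0.11 to 0.052 and Hist3h2a over −0.082 to 0.014. Hist1h2aa (metastases against N134-RHAMMB tumours) was 0.39 with library weights and −1.48 to 0.38 with 1 library left out, and Hist1h2ba −1.55 to 0.066. Against N134 tumours Hist1h2ai was −0.13 with library weights and −0.27 to 0.50 with 1 library left out, and Hist1h2al −0.12 to 0.32.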
